A study of Mus musculus with 64 samples.

Results

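Active peripheral regulatory T (Treg) cells in which the Foxp3 protein was degraded for 7 days were compared with the same cells that kept it, in 6 of the 64 bulk RNA-seq libraries of the series. These are the 6 libraries sorted from pooled spleen and peripheral lymph nodes whose library names give them as activated, 3 of them TIR1 and 3 WT. All animals were adult females heterozygous for Foxp3-AID, an allele that encodes Foxp3 joined at its N-terminus to an auxin-inducible degron and that also makes the ZsGreen reporter and a Cre recombinase from the Foxp3 transcript. Animals of the TIR1 group also carried ROSA26-TIR1(F74G), a plant ubiquitin ligase subunit under a ubiquitous promoter whose stop cassette is removed by Cre in cells that transcribe Foxp3. Animals of the WT group had a wild-type ROSA26 locus, so they lacked both TIR1 and the mCherry reporter made with it. Both groups received 5-ph-IAA, the ligand that joins TIR1(F74G) to the degron, once a day for 7 days, and neither group went without the ligand. Cells were sorted as CD4+ TCRβ+ ZsGreen+ cells of the active, CD62L-low and CD44-high gate. The study's general sorting method also required mCherry for Treg cells of TIR1 animals, while its bulk RNA-seq method does not name mCherry. The ZsGreen gate follows transcription from the Foxp3 locus, so it keeps cells that have lost the protein. Because the second X chromosome carries an unmodified Foxp3, these animals also held Foxp3-sufficient Treg cells without the reporter, which were not sorted here.

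The genotype of each library rests on its library name, since the records contradict each other. The count file of each of the 6 libraries is attached to a sample titled with the other genotype, and under the attachment every TIR1 to WT fold change of the active and the thymic libraries has the opposite sign. Library totals were 27753211 to 33603521 read pairs, and 16861 to 18127 genes had a count. Replicates correlated at 0.891 to 0.941 in log2 CPM (counts scaled to a common library size), a measure across genes that carries no independent replication. WT replicate 1 stood apart, at 115 on a first principal component that held 30.1% of the variance, against -60.0 to 1.67 for the other 5 libraries. Its removal is given beside the lists and genes it moved most.

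Foxp3 is the transcription factor that defines Treg cells. It holds genes for suppressive function and high interleukin-2 (IL-2) receptor expression at Treg levels and keeps cytokines of conventional helper T cells low. Active (effector) Treg cells are the antigen-experienced fraction, with strong expression of coinhibitory receptors, IL-10 and granzymes. The IL-17 cytokines belong to a helper program of conventional CD4 T cells that acts at barrier tissues.

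Across the transcriptome the 2 groups differed little beyond the spread between libraries. Of 14554 genes with a mean count of at least 10, none passed an adjusted p-value (Benjamini-Hochberg) of 0.05 in edgeR's quasi-likelihood test, a share of 0%, and the smallest adjusted p-value was 0.241. An unadjusted p-value under 0.05 was reached by 672 genes (4.62%), about as many as a 5% level gives by itself, of which 256 (1.76%) were higher and 416 (2.86%) lower in TIR1 libraries. With scaling by library totals only, these were 317 and 329 genes. Without WT replicate 1 the number rose to 2032, and without TIR1 replicate 2 or 3 it was 430 and 377. DESeq2 called 21 genes (0.144%), 11 higher and 10 lower, and all 21 were among the 672. The unadjusted p-values below therefore rank genes and do not call them, and their counts in gene lists are to be read against those shares. The study describes its bulk replicates as independent biological ones, while the labels tie none to an animal, so p-values measure the spread between these libraries. Of the named genes, Il17a and Trgc1 had an edgeR adjusted p-value of 0.241, 1700019D03Rik of 0.684 and Il21 of 0.739, and the other named genes with more than 3 counts in each group had 1.00.

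**Figure D1:**
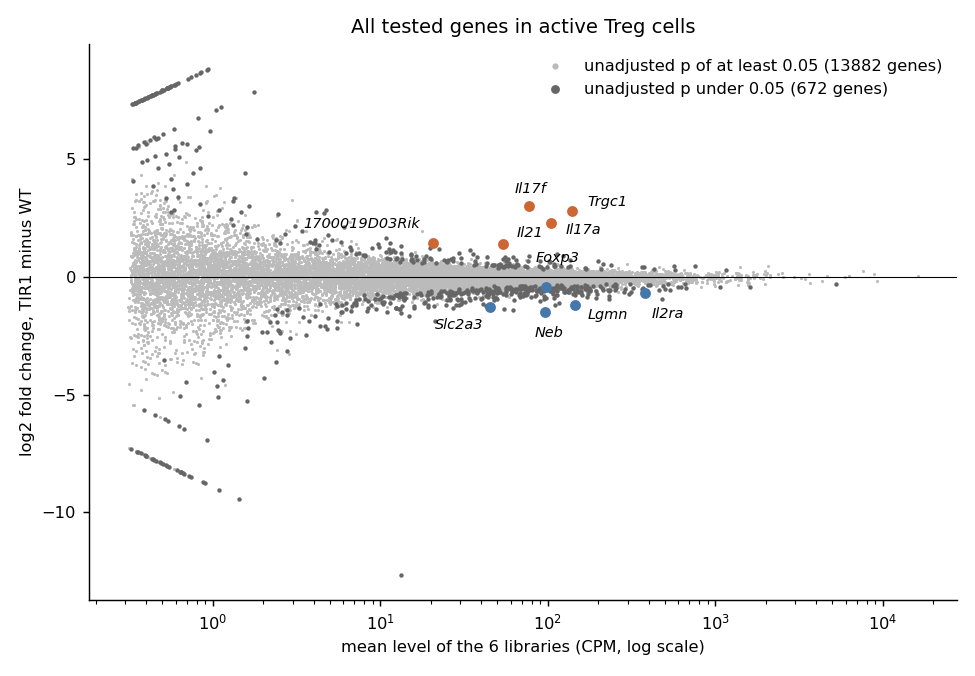
Log2 fold change of TIR1 over WT libraries (vertical axis) against the mean level of the 6 libraries (horizontal axis, CPM, log scale) for 14554 genes, with the 672 at an unadjusted p-value under 0.05 in dark grey. Il17a, Il17f, Il21 and Trgc1 (orange) lie well above the cloud at their level, while Foxp3, Il2ra, Neb, Lgmn and Slc2a3 (blue) lie below 0. The slanted rows of points at low levels are genes with no count in 1 of the 2 groups.

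Foxp3 mRNA itself was somewhat lower where the protein was degraded. Foxp3 (chromosome X, 7439883 to 7461484, GRCm39) was at 82.5, 90.9 and 77.0 CPM in TIR1 replicates 1 to 3 and at 102, 105 and 128 CPM in the WT replicates. The groups did not overlap, the means were 83.5 ± 6.98 (SD, n = 3) and 112 ± 14.0 CPM (SD, n = 3), and the difference was -0.42 on the log2 scale (SE 0.16, unadjusted p = 0.0287). It stayed between -0.48 and -0.31 over 15 alternative settings. The counts include the noncoding Flicr and part of Ppp1r3f, which overlap the gene, only as far as reads could be assigned to 1 gene, and Flicr (log2 fold change -0.35) and Ppp1r3f (-0.16) overlapped between groups. Foxp3 was detected in all 6 libraries, as the ZsGreen gate requires of its transcript, so its level says nothing about the protein.

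The targeted ROSA26 locus was read through Gt(ROSA)26Sor (chromosome 6, 113043843 to 113054294), the noncoding transcript that the insertion interrupts. It was at 21.7, 25.3 and 24.4 CPM in TIR1 libraries and at 40.3, 28.2 and 28.7 CPM in WT libraries. All 3 TIR1 libraries were below all 3 WT libraries, by -0.44 on the log2 scale (SE 0.23, unadjusted p = 0.0905), and by -0.25 without WT replicate 1. In thymic Treg cells of the same cross, by library name, the difference was -0.66 (SE 0.15, unadjusted p = 0.00176). The direction is the same in both tissues, and TIR1 itself has no row among the mouse gene names. Of the tested genes within 500 kb, Tfe3 near Foxp3 (-0.51, unadjusted p = 0.0324) and Creld1 near ROSA26 (-0.80, unadjusted p = 0.0391) were lower, Kcnd1 near Foxp3 had counts in TIR1 libraries only, and Thumpd3, which overlaps Gt(ROSA)26Sor, differed by -0.068.

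The promoters of 3 genes that carry the contrast are shown because their levels lay on opposite sides, with Il17a and Il21 higher and Il2ra lower in TIR1 libraries. Each run is the 250 bases before the RefSeq start site on the gene's strand, placed by an exact match in GRCm39. The capitals in Il17a mark a match to TGANTCA, the AP-1 motif, that begins 244 bases before the start site, and lower case marks the rest.
Il17a, chr1:20800879-20801128, plus strand: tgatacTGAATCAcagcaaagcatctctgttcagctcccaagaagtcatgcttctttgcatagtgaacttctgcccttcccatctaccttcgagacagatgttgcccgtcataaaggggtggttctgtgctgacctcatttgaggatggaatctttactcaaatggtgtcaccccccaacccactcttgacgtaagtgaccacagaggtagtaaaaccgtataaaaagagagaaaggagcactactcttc
Il21, chr3:37286786-37287035, minus strand: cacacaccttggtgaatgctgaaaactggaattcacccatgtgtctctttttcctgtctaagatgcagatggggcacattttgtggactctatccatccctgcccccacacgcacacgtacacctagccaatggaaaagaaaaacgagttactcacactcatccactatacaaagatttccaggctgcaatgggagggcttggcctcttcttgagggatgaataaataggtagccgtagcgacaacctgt
Il2ra, chr2:11647353-11647602, plus strand: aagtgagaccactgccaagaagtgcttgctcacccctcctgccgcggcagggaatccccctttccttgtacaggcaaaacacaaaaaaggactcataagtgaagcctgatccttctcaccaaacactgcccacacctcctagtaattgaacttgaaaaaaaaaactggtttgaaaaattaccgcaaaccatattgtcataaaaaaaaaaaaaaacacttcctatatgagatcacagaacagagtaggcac
On both strands, 3 motifs were searched in windows of the 250 bases before the start site, and they can overlap. Among all 32851 windows, TGTTTAC (forkhead) was in 3.17%, TTCNNNGAA (STAT) in 7.02% and TGANTCA (AP-1) in 6.75%. Of the 12 genes highest in TIR1 by p-value at a mean count of at least 100 and without overlap, 9 had a window, and TGTTTAC was in 0, TTCNNNGAA in 1 and TGANTCA in 1 of them. Of the 12 lowest, 7 had a window, with 0, 0 and 1 matches. Such a match is a string in this window and not a bound site.

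Inflammatory cytokine genes were the group with the largest differences. Of 16 listed cytokines, 12 were tested, and 5 were higher (Il17a, Il17f, Il21, Il4 and Ifng) and 2 lower (Tnf and Il9) at an unadjusted p-value under 0.05. Their median log2 fold change was 1.33, against -0.0091 over all genes. Summed over the list, with scaling by library totals as for all such sums, TIR1 libraries held 634 to 765 CPM and WT libraries 347 to 387 CPM. In bulk RNA, more cells of one kind and more RNA per cell cannot be told apart, and this holds for all levels below.

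IL-17A and IL-17F recruit neutrophils and act on epithelium, and their genes are neighbours on chromosome 1. Il17a (20801129 to 20804720) was at 187, 148 and 189.9 CPM in TIR1 libraries and at 24.3, 29.8 and 52.4 CPM in WT libraries. Every TIR1 library had more than 2 times the level of the highest WT library. The means were 175 ± 23.2 (SD, n = 3) and 35.5 ± 14.9 CPM (SD, n = 3), apart by 2.30 on the log2 scale (SE 0.29). The DESeq2 adjusted p-value was 5.98e-12, the adjusted p-values over 15 alternatives ran from there to 1.00, and Il17a was called in 3 of them, with a log2 fold change of 2.09 to 2.69. Il17f (20847370 to 20860841) was at 163, 63.0 and 189 CPM in TIR1 and 5.16, 2.80 and 43.4 CPM in WT libraries. The groups did not overlap, but each had 1 library far from the other 2, and the log2 fold change of 3.01 had an SE of 0.94 (unadjusted p = 0.0119). Without WT replicate 3, the highest of its group for both cytokines, the Il17f fold change was 5.12, and without WT replicate 2 it was 2.51.

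IL-21 is a helper cytokine that acts on B cells and T cells. Il21 (chromosome 3, 37276908 to 37286785) was at 88.6, 55.8 and 89.1 CPM in TIR1 libraries against 31.5, 25.7 and 31.8 CPM in WT libraries. The WT libraries lay close together and all TIR1 libraries were above them, with a log2 fold change of 1.39 (SE 0.23, unadjusted p = 0.000254) that remained between 1.29 and 1.58 over the alternatives. Il4, the Th2 cytokine, was at 11.8, 18.1 and 20.3 CPM in TIR1 and 11.7, 2.62 and 4.00 CPM in WT libraries (log2 fold change 1.45, SE 0.56). WT replicate 1 almost reached the lowest TIR1 library. Ifng, the Th1 cytokine, was at 7.44, 14.9 and 19.3 CPM in TIR1 and 9.55, 4.70 and 2.92 CPM in WT libraries (log2 fold change 1.28, SE 0.53), and its groups overlapped. Without WT replicate 1 the fold changes were 2.34 for Il4 and 1.87 for Ifng.

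The list did not share 1 direction. Tnf, an inflammatory cytokine, was at 48.5, 55.6 and 53.4 CPM in TIR1 and 96.7, 67.8 and 59.5 CPM in WT libraries, a difference of -0.51 on the log2 scale (SE 0.21) that was -0.28 without WT replicate 1. Il9 had counts in WT replicate 2 only (5.21 CPM), so its direction rests on 1 library. Tnfsf11, which encodes RANKL, was at 89.2 to 105 CPM in TIR1 and 67.1 to 88.4 CPM in WT libraries, without overlap and with a log2 fold change of 0.38 (SE 0.17). Il2, the growth factor that Treg cells take up and do not make, was at 4.93 to 7.03 CPM in TIR1 and 2.92 to 5.75 CPM in WT libraries, with overlap. Il3, Il5, Il13 and Csf2 were too low to be tested. Leaving out 1 library gave 3 to 5 higher members and a median of 0.80 to 1.31, and with no count filter the median was 0.61. The 2 lower members became 0 without TIR1 replicate 1, 2 or 3 or WT replicate 2, and 1 without WT replicate 1. The number was 3 without TIR1 replicate 2, TIR1 replicate 3 or WT replicate 3.

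**Figure D2:**
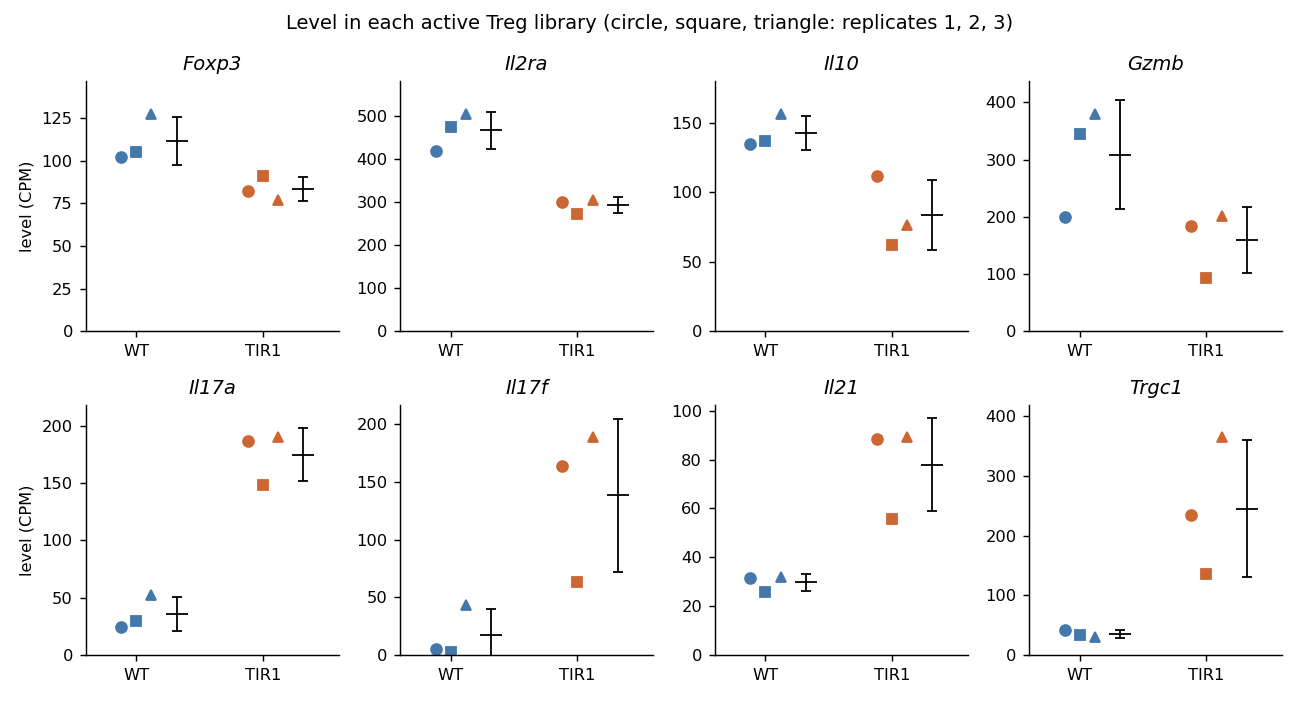
Level (CPM, vertical axes from 0) of 8 genes in each of the 3 WT (blue) and 3 TIR1 (orange) libraries, with circle, square and triangle for replicates 1, 2 and 3, and mean ± SD in black. The lower bar of Il17f in WT is cut at 0. Foxp3, Il2ra and Il10 are lower in every TIR1 library, Il17a, Il17f, Il21 and Trgc1 are higher in every one, and Gzmb overlaps through WT replicate 1.

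Receptors and lineage factors of helper cells gave few differences. Of 20 helper lineage receptors and factors, 0 reached an unadjusted p-value under 0.05 in either direction, and Rora, which belongs to another list, was lower as given below. Ccr6, a chemokine receptor of IL-17-producing cells, was at 81.8 to 97.7 CPM in TIR1 and 65.2 to 80.8 CPM in WT libraries, without overlap and with a log2 fold change of 0.25 (SE 0.16).

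The smallest p-value of all genes belonged to Trgc1, a constant-region gene of the T cell receptor γ chain (chromosome 13, 19398273 to 19401194). It was at 235, 136 and 365 CPM in TIR1 and 42.6, 33.8 and 29.96 CPM in WT libraries. The WT libraries were tight and the TIR1 libraries widely spread, with means of 245 ± 115 (SD, n = 3) and 35.4 ± 6.45 CPM (SD, n = 3), apart by 2.79 on the log2 scale (SE 0.34). The DESeq2 adjusted p-value was 2.42e-14, adjusted p-values over 15 alternatives ran from there to 1.00, Trgc1 was called in 2 of them, and the fold change ranged from 2.39 to 3.08. Other genes of this locus, chosen after their values were seen, lay in the same direction at far lower levels. Trgv4, a variable segment, was at 2.38 to 5.80 CPM in TIR1 and 0.341 to 1.07 CPM in WT libraries (log2 fold change 2.67, SE 0.72). Trgv7 had 15, 13 and 16 counts in TIR1 libraries and 0 in all WT libraries, at least 15.2-fold higher when 3 counts over the group are taken as the floor. Trgc2 (1.24), Trgc3 (3.33) and Trgc4 (1.40) each had an SE of at least 0.63. The constant genes are near-identical copies, so the split of reads among them is uncertain.

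The T cell receptor δ chain, which pairs with γ in γδ T cells, gave a different picture. Trdc was at 3.18, 8.77 and 9.45 CPM in TIR1 and 9.88, 10.3 and 5.09 CPM in WT libraries, with overlap and a log2 fold change of -0.24 (SE 0.50). Sox13, a γδ lineage factor, had 0 counts in all 6 libraries, and Trdv4 had 2, 7 and 17 counts in TIR1 and 0 in WT libraries. Of 8 listed γδ T cell markers, 5 had a row in the files, 3 were tested and 0 reached an unadjusted p-value under 0.05. Their summed level was 17.5 to 31.7 CPM in TIR1 and 27.3 to 29.6 CPM in WT libraries, with all 3 WT libraries inside the TIR1 range. The list gave γ constant genes under names that the files do not use. Trgc1 and its relatives are therefore in neither this count nor this sum. The gate required TCRβ.

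Treg signature genes were lower in part. Of 28 such genes, all tested, 6 were lower at an unadjusted p-value under 0.05 (Il2ra, Tnfrsf1b, Capg, Itgae, Cish and Foxp3), 0 were higher, and the median was -0.19. Their summed level was 9425 to 10468 CPM in TIR1 and 11458 to 11749 CPM in WT libraries, without overlap. The number lower was 4 to 9 when 1 library was left out, with 4 without TIR1 replicate 3 and 9 without WT replicate 1. Without that library, 4 genes of the list were also higher and the median was -0.09.

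Il2ra encodes CD25, the high-affinity subunit of the IL-2 receptor, through which Treg cells compete for IL-2. It is on chromosome 2 (11647618 to 11698004) and was at 300.4, 272 and 306 CPM in TIR1 libraries against 419, 475 and 505 CPM in WT libraries. The TIR1 libraries were closely grouped and well below every WT library. The means were 293 ± 18.0 (SD, n = 3) and 466 ± 43.9 CPM (SD, n = 3). The log2 fold change was -0.67 (SE 0.13, unadjusted p = 0.000602) and held between -0.74 and -0.61 over the alternatives. Of 17 genes of the IL-2, IL-7 and STAT5 axis, 3 were lower (Il2ra, Cish and Socs3), 0 were higher and the median was -0.08. Cish, a STAT5 target that restrains cytokine receptors, was at 193, 178 and 157 CPM in TIR1 and 218, 289 and 234 CPM in WT libraries (log2 fold change -0.49, SE 0.16). Socs3, a related inhibitor, was at 121 to 202 CPM in TIR1 and 197 to 286 CPM in WT libraries (-0.71, SE 0.23), with TIR1 replicate 1 inside the WT range. Il2rb, the β subunit, was at 909.7 to 996 and 970.0 to 1277 CPM (-0.22, SE 0.13), and Il7r at 261 to 338 and 247 to 283 CPM (0.15, SE 0.14), both with overlap.

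Among the other signature genes, Tnfrsf1b encodes TNFR2, a receptor that supports Treg expansion. It was at 415, 257 and 323 CPM in TIR1 and 460.3, 646 and 801 CPM in WT libraries, all 3 WT libraries above the TIR1 libraries (log2 fold change -0.94, SE 0.24). Capg, an actin-capping protein, was at 1199.9 to 1469 CPM in TIR1 and 1721 to 2045 CPM in WT libraries (-0.44, SE 0.13). Itgae, which encodes the integrin CD103, was at 78.0, 58.0 and 60.0 CPM in TIR1 and 73.9, 149 and 148 CPM in WT libraries (-0.92, SE 0.28), where WT replicate 1 lay among the TIR1 libraries. Other hallmark genes kept levels within the spread of the libraries. Ctla4 was at 762 to 985 and 964 to 1144 CPM (-0.28, SE 0.14), and Tnfrsf18, which encodes GITR, at 375 to 418 and 344 to 445 CPM (-0.044, SE 0.14). Ikzf2, which encodes Helios, was at 152 to 291 CPM in TIR1 and 122 to 294 CPM in WT libraries (0.36, SE 0.36), with WT replicate 1 the highest of the 6 and a fold change of 0.89 without it.

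Suppressive effector genes were lower more often than the rest. Of 16, 15 were tested, 5 were lower at an unadjusted p-value under 0.05 (Il10, Lag3, Gzmb, Fgl2 and Tgfb1), 0 were higher, and the median was -0.35. Their summed level overlapped, at 2393 to 2919 CPM in TIR1 and 2830 to 3815 CPM in WT libraries, with WT replicate 1 below TIR1 replicate 1. Il10, the gene of the suppressive cytokine IL-10, was at 112, 62.4 and 76.5 CPM in TIR1 and 135, 137 and 157 CPM in WT libraries. The groups did not overlap, and the log2 fold change was -0.77 (SE 0.22, unadjusted p = 0.00732), between -1.04 and -0.60 over the alternatives. Lag3, a coinhibitory receptor for MHC class II, was at 129, 98.7 and 148 CPM in TIR1 and 169, 185 and 214 CPM in WT libraries (-0.59, SE 0.18), also without overlap. Gzmb, a cytotoxic protease, was at 183, 93.2 and 201 CPM in TIR1 and 200.0, 344 and 380.2 CPM in WT libraries (-0.95, SE 0.32).

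For Gzmb, Fgl2 and Tgfb1 the groups overlapped through WT replicate 1, which was close to the TIR1 libraries. Fgl2, a secreted suppressor, was at 93.2 to 111 CPM in TIR1 and at 97.9, 147 and 215 CPM in WT libraries (-0.63, SE 0.26). Tgfb1, the gene of TGF-β1, was at 127 to 148 CPM in TIR1 and at 137, 215 and 192 CPM in WT libraries (-0.43, SE 0.19). Entpd1, which encodes the ectoenzyme CD39, was at 39.3 to 52.1 CPM in TIR1 and 56.7 to 63.8 CPM in WT libraries, without overlap (-0.35, SE 0.18). The number of lower members was 2 to 7 without 1 library, with 7 without WT replicate 1, 2 without WT replicate 3 and 3 without TIR1 replicate 1, TIR1 replicate 3 or WT replicate 2, and the median stayed between -0.40 and -0.31.

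Of 26 costimulatory and coinhibitory receptors, 4 were lower at an unadjusted p-value under 0.05 (Tnfrsf1b, Lag3, Havcr2 and Cd6) and 0 were higher. Havcr2, which encodes the coinhibitory TIM-3, was at 22.5 to 39.7 CPM in TIR1 and 38.0, 61.5 and 91.4 CPM in WT libraries (-0.99, SE 0.34). Cd6, an adhesion coreceptor, was at 434 to 687 and 599 to 899.9 CPM (-0.47, SE 0.21). Both overlapped through 1 library of each group.

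Of 32 transcription factors of effector Treg cells, 2 were higher (Nfkb1 and Tcf7) and 3 lower (Relb, Rora and Prdm1) at an unadjusted p-value under 0.05, with a median of -0.0062. Nfkb1, an NF-κB subunit, was at 270.2, 245 and 319.6 CPM in TIR1 and 201, 183 and 207 CPM in WT libraries, without overlap (log2 fold change 0.50, SE 0.14). Relb, another NF-κB subunit, was at 95.0 to 133 CPM in TIR1 and 142 to 193 CPM in WT libraries (-0.51, SE 0.18), so members of this family differed in direction, as they did under each scaling tried. Rora was at 196 to 223 and 253 to 324 CPM (-0.39, SE 0.15). Prdm1, which encodes Blimp-1, a regulator of Il10 and of effector differentiation, was at 80.5, 58.3 and 66.1 CPM in TIR1 and 70.3, 117 and 127 CPM in WT libraries (-0.61, SE 0.24).

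Of 32 tested homing receptors and integrins, 1 was higher (Ccr7) and 5 lower (Itgae, Ccr2, Icam1, Ccr3 and Ccr9). By overlap the split was the reverse, with 5 members above (15.6%) and 1 below (3.1%) without overlap, against 4.99% and 4.91% of all genes. Ccr7, the receptor for entry into lymphoid tissue, was at 562, 743 and 666 CPM in TIR1 and 486, 513 and 444 CPM in WT libraries, all TIR1 libraries above (0.45, SE 0.14). Ccr2, an inflammatory chemokine receptor, was at 475, 359 and 483 CPM in TIR1 and 481, 727 and 714 CPM in WT libraries (-0.54, SE 0.19), with WT replicate 1 at the TIR1 level. Icam1 was at 55.1 to 97.3 and 84.8 to 137 CPM (-0.69, SE 0.27), the gut-homing Ccr9 at 103 to 157 and 138 to 214 CPM (-0.51, SE 0.22), and Ccr3 at under 11 CPM throughout.

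Genes that respond to T cell receptor signals differed in both directions. Of 32, 3 were higher (Dusp1, Btg2 and Dusp6) and 2 lower (Dusp5 and Fosl2). Dusp1, a phosphatase of MAP kinases, was at 411, 455 and 427 CPM in TIR1 and 320.4, 325 and 322 CPM in WT libraries (0.42, SE 0.11), a difference well past the narrow spread of both groups. Dusp5, a phosphatase of ERK, was at 92.9 to 121 CPM in TIR1 and 143 to 180.3 CPM in WT libraries (-0.54, SE 0.16). Dusp6, also a phosphatase of ERK, was at 96.5 to 114 and 68.5 to 87.3 CPM (0.41, SE 0.16), and Btg2, an antiproliferative gene, at 383 to 441 and 280.2 to 362 CPM (0.43, SE 0.14).

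**Figure D3:**
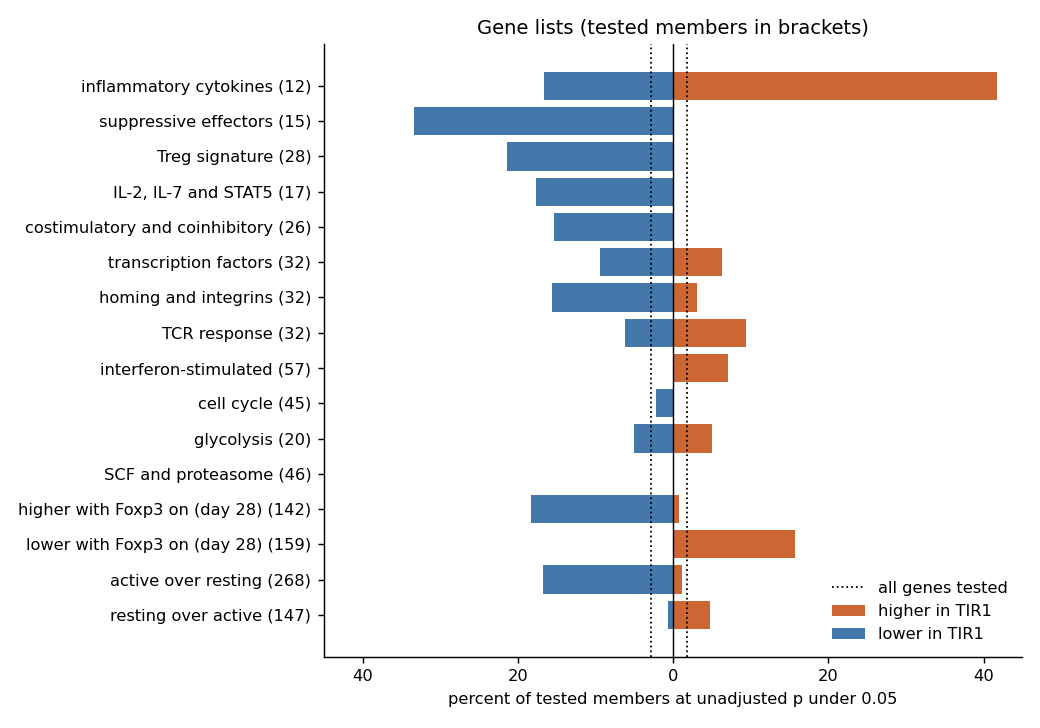
Percent of tested members of each gene list at an unadjusted p-value under 0.05 (horizontal axis), higher in TIR1 libraries to the right (orange) and lower to the left (blue), with dotted lines for all genes tested (1.76% and 2.86%). Cytokines extend furthest to the right, and suppressive effectors and Treg signature genes furthest to the left among the lists of a named function.

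Of 57 tested interferon-stimulated genes, 4 were higher (Slfn1, Usp18, Mx1 and Oas1g), 0 were lower and the median was 0.07. Slfn1, a regulator of T cell quiescence, was at 464 to 519 CPM in TIR1 and 378 to 382 CPM in WT libraries (0.35, SE 0.11), while Mx1, an antiviral GTPase, was at 10.8 to 27.7 and 5.31 to 9.96 CPM (1.07, SE 0.45) with TIR1 replicate 2 far above the rest. Without TIR1 replicate 2 only 1 member was higher and the median was -0.02, without TIR1 replicate 1 or WT replicate 2 there were 2 higher, and without WT replicate 1 there were 11 higher and 5 lower. The summed level overlapped, at 13527 to 14317 CPM in TIR1 and 13335 to 16184 CPM in WT libraries.

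The remaining lists stayed near the shares over all genes. Of 45 cell cycle genes, 1 was lower, the mitotic kinesin Kif20a at 17.0 to 19.3 CPM in TIR1 and 23.3 to 42.1 CPM in WT libraries (-0.92, SE 0.27). Of 20 glycolysis genes, the kinase Pdk1 was higher (0.41, SE 0.17) and the glucose transporter Slc2a3 lower (-1.29, SE 0.27). Of 24 heat shock and unfolded protein genes, Hsp90aa1 was higher (0.45, SE 0.19) and Herpud1 lower (-0.35, SE 0.14). None of 20 cholesterol synthesis genes, 15 tested survival genes of the BCL-2 family or 46 genes of the SCF ligase and the proteasome, the machinery through which TIR1 acts, reached an unadjusted p-value under 0.05. The unadjusted level gave 0 in each of these 3 lists, and DESeq2 called no member of them after adjustment.

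Among all genes, those lowest in TIR1 libraries by p-value included several members of the lists. Neb, the gene of the giant actin-binding protein nebulin, was at 63.6, 40.6 and 47.0 CPM in TIR1 and 141, 96.1 and 189 CPM in WT libraries (log2 fold change -1.50, SE 0.28). Lgmn, the lysosomal protease legumain, was at 105, 62.1 and 100.3 CPM in TIR1 and 164, 227 and 214 CPM in WT libraries (-1.18, SE 0.23). Slc2a3, which encodes GLUT3, was at 35.8, 17.0 and 25.5 CPM in TIR1 and 68.4, 62.6 and 60.2 CPM in WT libraries. In all 3 the groups were clearly apart, as they were for Pard6g, a polarity protein (108 to 129.7 against 174 to 249 CPM, -0.87, SE 0.18) and for Rapsn, a scaffold of acetylcholine receptors (6.01 to 8.86 against 16.3 to 31.6 CPM, -1.67, SE 0.35). Coro2a, an actin-binding coronin (-1.03, SE 0.23), Gm20627, a predicted gene (-1.997, SE 0.43), Ffar2, a receptor for short-chain fatty acids (-0.98, SE 0.24), Bcl3, an NF-κB cofactor (-0.61, SE 0.15), Ttc7 (-0.77, SE 0.19) and Podnl1 (-0.71, SE 0.18) completed that set with Il2ra.

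Among the genes highest in TIR1 libraries by p-value, 1700019D03Rik, an uncharacterised gene, was at 31.5, 28.5 and 31.3 CPM against 11.5, 9.79 and 12.0 CPM in WT libraries (log2 fold change 1.45, SE 0.23). Both groups were tight. Cd40lg, the helper ligand that acts on B cells, was at 150.3, 171 and 188 CPM in TIR1 and 120.1, 103 and 85.5 CPM in WT libraries (0.72, SE 0.17). Themis, a regulator of T cell receptor signalling, was at 58.6 to 85.6 and 40.5 to 46.5 CPM (0.76, SE 0.19). St3gal6, a sialyltransferase (1.25, SE 0.32), Myo6, an unconventional myosin (1.20, SE 0.29), Apol7e (0.84, SE 0.20), Tmem183a (0.66, SE 0.15), Dipk1a (0.66, SE 0.16) and Dennd2d (0.57, SE 0.14) were the others besides Il17a, Il21 and Trgc1, and none overlapped between groups. Apol7e belongs to a family of similar genes, so its count is less certain.

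Of the genes that the study names after Foxp3 degradation, 6 named as lower and 4 as higher were listed, in part from resting cells. Tnfsf8, named as sensitive without a direction, was put with the 6. The study also names Foxp3 itself as lower, and some cytokines as secreted more in culture. The study chose the listed genes on its own data of the same cross, so their direction here is no independent evidence. Of the 7, 5 were lower and 2 higher, with Il2ra lower and Tnfsf8 higher at an unadjusted p-value under 0.05. Tnfsf8, which encodes CD30 ligand, was at 207, 289 and 239 CPM in TIR1 and 205, 100.3 and 149 CPM in WT libraries (0.69, SE 0.25). Lrrc32, which encodes the TGF-β carrier GARP, was at 26.4 to 71.1 and 53.1 to 109 CPM (-0.86, SE 0.43), while Tnfrsf4 (-0.18), Il2rb and Tnfrsf18 were within the spread of the libraries and Izumo1r (0.026, SE 0.29) had its highest and lowest values both in WT libraries. All 4 of the others were higher. Tcf7, the gene of the T cell factor TCF-1, was at 1226, 1365 and 1227 CPM in TIR1 and 1132, 930.4 and 1030.5 CPM in WT libraries (0.30, SE 0.12, unadjusted p = 0.0333), and Id2, Il7r and Sox4 had overlapping groups.

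Genes that respond to Foxp3 in other active cells gave a list that owes nothing to these 6 libraries. In the reversible-allele experiment, in heterozygous females, a stop cassette in Foxp3 was removed by an inducible Cre recombinase after a single dose of hydroxytamoxifen. At day 28, active cells with Foxp3 on came from animals with this Cre. They were compared with active Foxp3-negative cells of littermates without the Cre (2 libraries each). The groups thus also differed in Cre genotype, whose part in these lists was not tested. Genes were called by edgeR at an adjusted p-value under 0.05 and a log2 fold change of at least 1. There 156 genes (0.751% of those tested) were higher with Foxp3 on and 172 (0.828%) lower. Of the first, 142 were tested here, and 26 were lower and 1 higher in TIR1 libraries at an unadjusted p-value under 0.05, with 33 below and 2 above without overlap, against 4.91% and 4.99% of all genes. Their median was -0.18. Of the second, 159 were tested, and 25 were higher and 0 lower, with 32 above and 0 below without overlap and a median of 0.27.

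The genes lower with Foxp3 on included Il17a, Il17f, Il21, Il4 and Trgc1, but not Ifng, which differed by 0.64 at day 28. Their log2 differences at day 28 were -6.40 for Il17a, -6.85 for Il17f, -3.11 for Il21, -2.46 for Trgc1 and -1.32 for Tnfsf8, all opposite in sign to the degron contrast. Vdr, the vitamin D receptor, was at 63.4, 53.4 and 50.7 CPM in TIR1 and 26.5, 27.4 and 38.8 CPM in WT libraries (0.85, SE 0.22), against -3.76 at day 28. Glp1r, the receptor of the hormone GLP-1, was at 7.78, 4.91 and 12.2 CPM in TIR1 and 0.258, 1.96 and 1.24 CPM in WT libraries (2.84, SE 0.74), against -5.91. Lmo4, a LIM domain cofactor (0.70, SE 0.19), and Tgfbr3, a TGF-β coreceptor (0.75, SE 0.27), lay likewise above in all 3 TIR1 libraries.

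**Figure D4:**
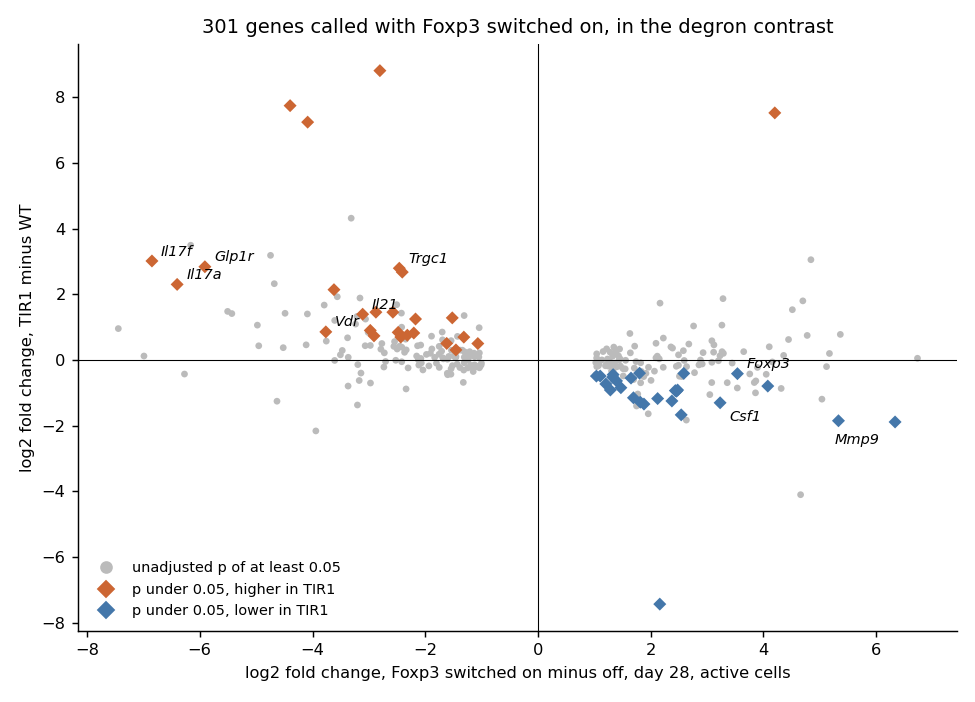
Log2 fold change of TIR1 over WT libraries (vertical axis) against that of Foxp3 switched on over off at day 28 (horizontal axis) for the 301 genes called in the latter and tested in the former, with diamonds for an unadjusted p-value under 0.05. Diamonds higher in TIR1 (orange) lie at the left and those lower in TIR1 (blue) at the right, except 1 orange diamond at the right.

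Of the genes higher with Foxp3 on, Foxp3 (3.54 at day 28), Lgmn (2.12), Rapsn (2.54) and Slc2a3 (1.81) are described above. Csf1, the gene of macrophage colony-stimulating factor, was at 13.2, 12.9 and 20.6 CPM in TIR1 and 22.6, 37.0 and 55.9 CPM in WT libraries (-1.31, SE 0.36), against 3.23 at day 28. Mmp9, a matrix metalloprotease, was at 19.2, 6.28 and 1.94 CPM in TIR1 and 37.8, 31.0 and 30.4 CPM in WT libraries (-1.85, SE 0.67), against 5.33. Marcks, a substrate of protein kinase C (-1.15, SE 0.33), Atp6v0d2, a subunit of the vacuolar proton pump (-1.25, SE 0.33), Il21r, the IL-21 receptor (-0.55, SE 0.19), and Ecm1, a secreted matrix protein (-0.40, SE 0.15), were also lower in all 3 TIR1 libraries. Il2ra was higher by 0.95 with Foxp3 on at day 28, short of the limit of 1 for the list.

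Both lists depended on WT replicate 1 to different degrees. Its summed level for the genes higher with Foxp3 on was 19443 CPM, against 12887 to 15034 CPM in the other 5 libraries. Without it the median of that list was 0.03 instead of -0.18, with 16 genes higher and 25 lower, and without TIR1 replicate 3 only 15 were lower. The list of genes lower with Foxp3 on kept a median of 0.17 to 0.44 without any 1 library, with 20 to 33 members higher. Its sum, scaled by library totals without TMM factors, was 8567 to 9849 CPM in TIR1 and 6590 to 8348 CPM in WT libraries. TIR1 replicate 2, the lowest of its group, had a TMM factor of 1.03, which would lower its value. No separation of the groups is therefore read from these sums.

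**Figure D5:**
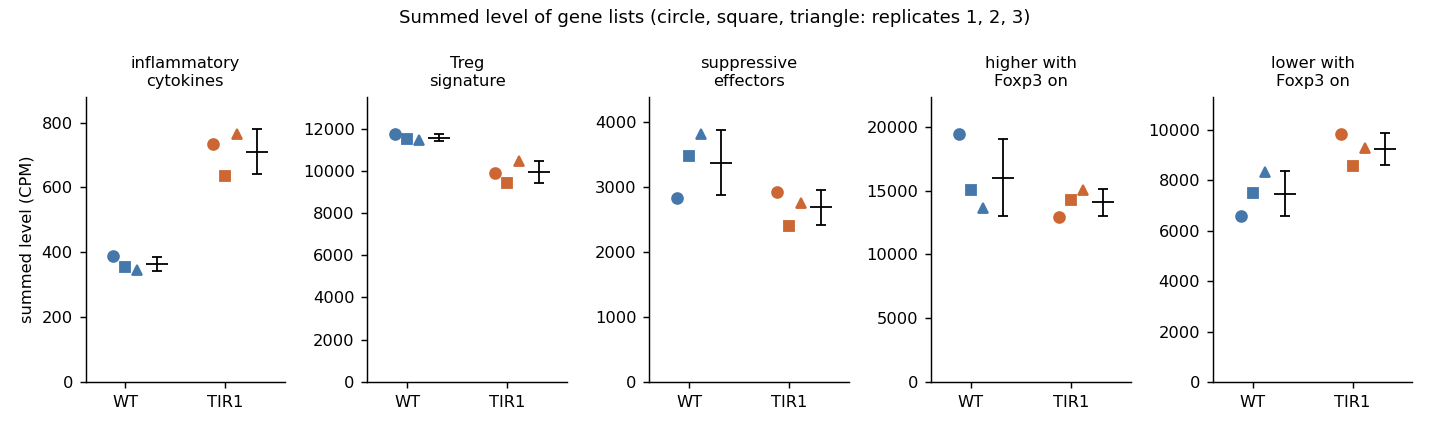
Summed level (CPM by library totals without TMM factors, vertical axes from 0) of 5 gene lists in each WT (blue) and TIR1 (orange) library. Circle, square and triangle stand for replicates 1, 2 and 3, and mean ± SD is in black. Cytokines are higher and Treg signature genes lower in every TIR1 library. Genes lower with Foxp3 on are higher in every TIR1 library in this scaling only by a narrow margin. Suppressive effectors overlap, with WT replicate 1 (2830 CPM) below TIR1 replicate 1 (2919 CPM). For the genes higher with Foxp3 on, WT replicate 1 (19443 CPM) lies far above the other 5.

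In a broader comparison the medians were near 0. Between GFP-marked Treg cells and untreated cells without Foxp3, both active, 837 genes (4.03%) were higher and 802 (3.86%) lower in Treg cells by the same limits. Of the first, 725 were tested here, with 15 higher and 45 lower at an unadjusted p-value under 0.05 and a median of -0.02. Of the second, 718 were tested, with 46 higher and 36 lower and a median of 0.02.

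Genes of the active Treg state were more often lower than higher in TIR1 libraries. Between active and resting GFP-marked Treg cells, 284 genes (1.37%) were higher in active and 181 (0.871%) in resting cells. Of the active genes, 268 were tested, 45 were lower and 3 higher at an unadjusted p-value under 0.05, and the median was -0.25. The smallest p-values among them were those of Neb, Podnl1 and Tnfrsf1b, and Il10 and Lag3 were also among the 45. Of the resting genes, 147 were tested, 7 were higher and 1 lower, and the median was 0.14. These lists share 20 genes with those higher with Foxp3 on, 14.1% of the Foxp3 list and 7.46% of the active list. With the 20 set aside, the Foxp3 list still had 17 lower and 1 higher of 122, with a median of -0.13. The genes lower with Foxp3 on, without the 10 shared with the resting list, had 24 higher and 0 lower of 149.

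The count of active genes that were lower varied with single libraries, at 72 without WT replicate 1, 26 without WT replicate 3, 27 without TIR1 replicate 2 and 31 to 44 without one of the other 3, and the median stayed between -0.34 and -0.16. The count of resting genes that were higher was 34 without WT replicate 1, 3 without TIR1 replicate 2, 4 without TIR1 replicate 3 and 5 to 7 without one of the other 3, and the median was 0.08 to 0.40, the highest without WT replicate 1. Of the 7 genes that mark the gate, 2 were higher in TIR1 (Ccr7 and Tcf7) and 0 lower. Ccr7 is one of the resting genes, at -1.41 in active minus resting GFP-marked Treg cells, and Tcf7 differed by -0.20 there. The summed level of the 7 was 3389 to 3928 CPM in TIR1 and 2916 to 3030 CPM in WT libraries, without overlap. The 7 were not split by the side of the gate they mark, so this sum is no level of either side. S1pr1, the receptor for leaving lymphoid tissue, was at 452 to 481 and 366 to 425 CPM (0.25, SE 0.12). Cd44, an adhesion receptor of the gate, was at 147 to 221 CPM in TIR1 and 164 to 191 CPM in WT libraries, with the WT range inside the TIR1 range. The part of these values in the results above was not tested.

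Most markers of other cells were low, with the exception of Ighm. Cd8a, Ncr1, Rag1 and Pf4 had 0 counts in all 6 libraries, while Cd4 was at 566 to 706 CPM in TIR1 and 452 to 856 CPM in WT libraries. Of 8 tested B cell markers, 1 was lower, Ighm at 895, 888 and 970.2 CPM in TIR1 and 1478, 1126 and 1057 CPM in WT libraries (-0.41, SE 0.15). The summed level of the list, most of it Ighm, was 989 to 1074 CPM in TIR1 and 1144 to 1563 CPM in WT libraries. Ighm was also higher with Foxp3 on at day 28 (2.59), and Cd79a was at most 4.13 CPM. Of 9 tested CD8 T and NK cell markers, 1 was higher, Klrk1 at 5.90 to 10.8 CPM in TIR1 and 0.241 to 3.02 CPM in WT libraries (2.73, SE 0.94, and 4.76 without WT replicate 1), and the summed level was 107 to 151 and 69.1 to 178 CPM. Of 14 tested myeloid, 4 plasma cell, 3 stromal and 3 double-positive thymocyte markers, 0 reached that level, and no erythroid or platelet marker was high enough to test. Myeloid markers summed to 267 to 339 CPM in TIR1 and 271 to 416 CPM in WT libraries. Their part in the differences was not tested.

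In the thymus, CD73-negative Treg cells of the same cross gave a different pattern for several of these genes. Il17a, Il17f, Il21 and Il10 were too low there to be tested. The difference between the active and the thymic effect was fitted over 12 libraries and 14769 genes, where 0 passed an edgeR adjusted p-value of 0.05 (0%), 984 (6.66%) had an unadjusted p-value under 0.05 and DESeq2 called 71. Trgc1 differed by 0.32 in the thymus (SE 0.76), and its difference of effects was 2.48 (unadjusted p = 0.0028). Il2ra differed by -0.26 (SE 0.12) in the thymus, with a difference of effects of -0.41 (unadjusted p = 0.0338), and Tnfrsf1b differed by 0.14 (SE 0.076) there, with -1.08 (unadjusted p = 0.00188).

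Id2 and Il7r had larger differences in the thymus, and Pard6g and Coro2a differed in sign. Id2, an inhibitor of E proteins, was higher by 1.12 in the thymus (SE 0.12) and by 0.22 in active cells (SE 0.14), and Il7r by 1.12 (SE 0.23) and 0.15 (SE 0.14), with unadjusted p-values of 0.000296 and 0.00059 for the difference. Pard6g was higher in the thymus (0.71, SE 0.23) and lower in active cells, a difference of -1.57 (unadjusted p = 0.000122), and Coro2a likewise (0.52, SE 0.19, difference -1.55). Tcf7 (0.28, SE 0.066) and Tnfsf8 (0.54, SE 0.11) had thymic values close to the active ones. In the infant libraries, whose labels disagree on genotype, the libraries titled TIR1 had -0.40 for Il2ra (SE 0.18), -0.059 for Foxp3 (SE 0.11) and 0.96 for Id2 (SE 0.32).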

How the data were processed

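The authors deposited raw counts, read pairs per gene name. Per the file headers they were made with featureCounts 2.0.3 over GENCODE M30, without strand, and in the 20 degron libraries with a minimum mapping quality of 30 (the other 44 files state none). The methods of the study give STAR and GRCm39, the submitters' processing notes Bowtie2. No replicate was pooled.

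Libraries were grouped by the library name in the header. Counts were scaled with TMM factors and tested with edgeR 4.0.16 (R 4.3.3, quasi-likelihood F test, robust) over genes with a mean count of at least 10. CPM values of single genes are TMM-scaled, while summed levels of lists are scaled by library totals without TMM factors. SE is the fold change divided by the square root of F. In the 3 pairs sharing a replicate number, the deviations of log2 CPM from the group mean correlated at -0.086, -0.025 and -0.058, so no pairing was used. Intervals cover counting error only.

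The members and lists were chosen with earlier results of these data known. The genes named are Foxp3, Gt(ROSA)26Sor, the study's genes, DESeq2 calls, up to 12 genes per direction by p-value (mean count at least 100, no overlap), up to 4 per list, genes within 500 kb of both loci, and markers. Genes of the γ chain locus and of the lists from other libraries were added after their values were seen. Some members of the lists are not reported here by name. Alternatives were RLE, upper quartile and total scaling, other filters, DESeq2 1.42.0, non-robust estimation, a replicate block, a fit over 12 libraries and leaving out each library. The scripts were tested on simulated data.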

Additional observations from a re-analysis of the deposited data

How the results depend on the processing

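With edgeR at an adjusted p-value of 0.05, 2 genes (Il17a and Trgc1) were called without a count filter, 0 to 1 when 1 library was left out (Il17a, without WT replicate 3), and DESeq2 called 21. The replicate block called 0, and the numbers do not pair the samples. Genes at an unadjusted p-value under 0.05 numbered 1169 without a filter, 397 with the replicate block and 377 to 2032 without 1 library, the last without WT replicate 1. Without WT replicate 3 the split turned to 427 higher and 293 lower (59.3% higher, against 38.1%). For the difference between active and thymic effects DESeq2 called 71 genes, leaving out 1 library 0 to 5 (5 without thymus WT replicate 3) and the block by the number that starts the library name 0. Of 1657 values of 111 named genes under the alternatives, 1624 kept direction and side of the threshold, 24 passed it and 9 in 5 genes turned sign. Without 1 library these ranged from -0.40 to 0.00089 for Cd4 (turned without WT replicate 3), from -0.21 to 0.47 for Izumo1r (-0.0025 and -0.056 without TIR1 replicates 2 and 3, -0.079 and -0.21 without WT replicates 2 and 3), from -0.022 to 1.59 for Sox4 (turned without TIR1 replicate 2), from -0.15 to 0.029 for Tnfrsf18 (0.029 and 0.0036 without WT replicates 1 and 2) and from -0.50 to 0.12 for Trdc (turned without TIR1 replicate 1). The cause of these turns was not tested. With 3 libraries a group and a common biological coefficient of variation of 0.535, differences below the spread shown were not detectable. The sign of the active and thymic TIR1 to WT differences rests on the library names.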

Other observations

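Of the 21 genes that DESeq2 called, 7 had 3 counts or fewer in all libraries of 1 group, and counts from few molecules amplified before sequencing are not independent. Galnt14, a glycosyltransferase of mucin-type sugars, had 153 counts over the TIR1 libraries and 0 over the WT libraries, at least 52.7-fold higher with a floor of 3 counts over the group. Ticam2, an adaptor of Toll-like receptor 4, had 127 and 0 counts, at least 43.8-fold higher. Avpr1a, a vasopressin receptor, had 199 counts in TIR1 and 1 in WT libraries, a ratio of 206 (95% counting interval 36.5 to 8168). Olfr527, an olfactory receptor of a family with similar members, had 314 and 1 counts, a ratio of 325 (57.9 to 12865). Maneal had 187 and 1 counts, a ratio of 193 (34.3 to 7678), and Tmem26 had 171 and 2 counts, a ratio of 88.4 (24.1 to 736). Unc13b, a gene of vesicle priming, went the other way with 165 counts in WT and 1 in TIR1 libraries, a ratio of 160 (28.2 to 6340). Xkr5, also called, was at 0.0335 to 0.205 CPM in TIR1 and 1.99 to 2.65 CPM in WT libraries.

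Of the 672 genes at an unadjusted p-value under 0.05, 30 had no count in the 3 TIR1 libraries and 54 none in the 3 WT libraries. Among the 10409 genes with a mean count of at least 100, 144 were higher and 347 lower at that level. Plekhh2 was at 80.1 CPM in WT replicate 1 and had 0 counts in the other 5 libraries. Oas1g had 60 counts in TIR1 libraries, none of them in replicate 2, and 0 in WT libraries, at least 20.7-fold higher. Kcnd1, within 500 kb of Foxp3, had 102 and 0 counts, at least 35.2-fold higher.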
